A study of Homo sapiens with 4 samples.

Results

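The genes described here encode the subunits of the glutamate, GABA-A and nicotinic acetylcholine receptors, the receptors through which the main excitatory and inhibitory transmitters of the nervous system act. They were chosen by symbol from an array table of 67539 transcript clusters, the units in which this array summarizes its probes. A cluster was taken when its annotation held exactly 1 gene symbol and that symbol belonged to 1 of the receptor families. Of the 61 genes of these families, 54 had such a cluster, on 56 rows, because GRID1 and GABRG3 had 2 rows each and were represented by the brighter one. The other 7 genes were not analysed here.

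Expression was measured with the GeneChip Human Transcriptome Array 2.0 in TC-71, an established cell line of Ewing sarcoma (EWS), a tumor of bone and soft tissue driven by a fusion of EWSR1 with an ETS factor. The submitters deposited 4 arrays of total RNA. Replicates A and B were TC-71 cells that received nothing, and replicates C and D were TC-71 cells that received exosomes (EXOs, small vesicles released by cells) from TC-71 cells silenced for CD99, the surface molecule typical of EWS. The EXOs were given at 10 µg per 5000 cells, without serum, for 24 h. All recipients express CD99 themselves, at log2 signals of 9.93 to 10.25 on these arrays, and the donors were a silenced derivative of the same line. The untreated arrays received no vesicles at all, so the comparison holds the whole effect of adding EXOs, and cells given EXOs of unsilenced TC-71 were not analysed here. The labels name A and B, and C and D, as biological replicates and say no more of how the cultures were separated, so the p-values measure the spread between these arrays. In a bulk measurement, fewer cells of a type and less RNA per cell cannot be told apart.

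Receptors for glutamate fall into ion channels (AMPA, kainate, delta and NMDA receptors, named mostly after their agonists) and G protein-coupled metabotropic receptors. GABA-A and nicotinic receptors are pentameric channels of another family, built around a chloride and a cation pore. The channels are assembled from several subunits, and many of them work only in particular combinations. EWS cells show a limited neural character, and the study asked whether EXOs without CD99 push them further toward it. It judged this by β-III Tubulin staining and neurite counts after a longer exposure, and by neural terms among the changed genes. The RNA of these genes of the synapse after 24 h is another measure and does not answer that question by itself.

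Deposited values were log2 signals, on which a difference of 1 is a doubling. Array medians lay between 5.38 and 5.45. Of 11 measured markers of EWS (CD99, NKX2-2, NR0B1 and others), all 11 lay above the median of all clusters and 9 above its upper quartile of 6.69. Of these, PAPPA was called higher (1.42) and NR0B1 lower (-0.62) in exposed cells. Of 14 neuronal markers, 9 lay above the median and none was called changed, with INA at 0.56 (limma adjusted p = 0.00994) under the fold required. In the same fit, 1746 of the 67539 clusters were called changed with limma at a fold of at least 1.5 and a Benjamini-Hochberg adjusted p of at most 0.05, which is 2.59% of them (1043 higher and 703 lower in exposed cells).

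No receptor subunit was called changed after exposure to CD99neg EXOs. Of the 54 genes, 0 were called higher and 0 lower, against 1.54% and 1.04% of all clusters and 2.06% in either direction of the clusters with exactly 1 symbol. On the adjusted p alone 0 passed, against 9.7% of all clusters. At an unadjusted p of at most 0.05, 4 subunits passed (GRIK2, GRIN2D and CHRNB2 toward higher and CHRNA5 toward lower signals), against 22.2% of all clusters. The log2 changes ran from -0.17 (CHRNA5) to 0.25 (GRIK2), with standard errors of 0.04 to 0.07. The median was 0.012, beside 0.01 over all clusters, and the median absolute change was 0.024, beside 0.054. The figures for all clusters were not matched for signal. Changes spread less among dim clusters: their quartiles were -0.021 and 0.04 at signals of 4.5 to 5, where 21 members lay. At signals of 6.5 to 7 the quartiles were -0.076 and 0.124. The 95% intervals from limma draw on the variance of all clusters as well as on that of the gene itself. All 54 lay within a fold of 1.5 in both directions, and 50 lay within a fold of 1.2. Intervals from the variance of each gene alone were not examined. Over all clusters, the interval reached a fold of 1.5 in 6.73%.

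**Figure D1:**
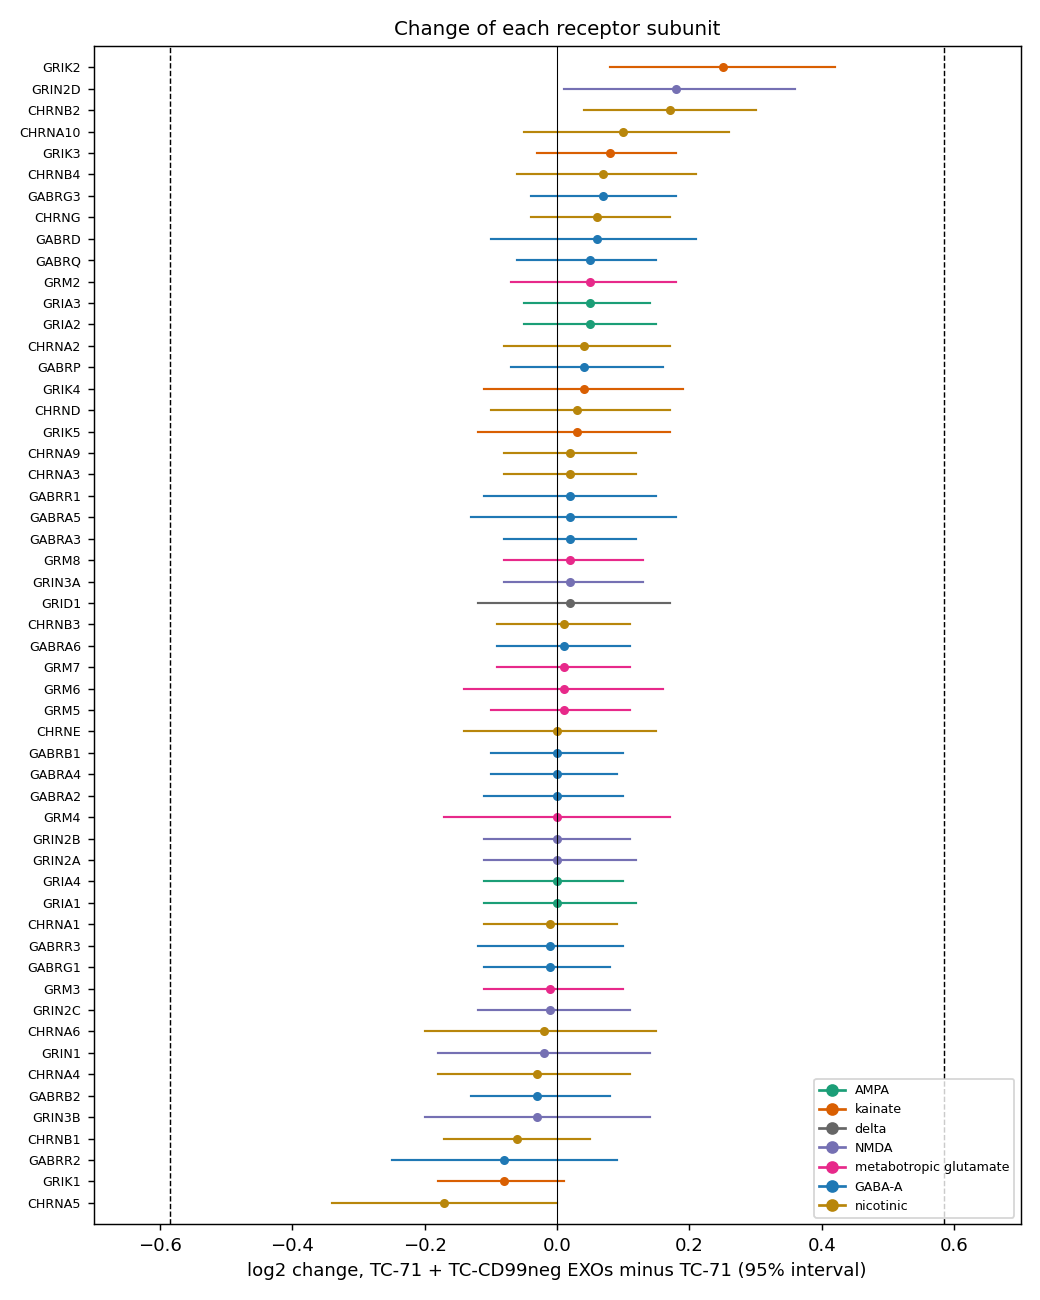
Log2 change (exposed minus untreated cells) of each of the 54 receptor subunits on the horizontal axis, with its 95% interval from limma (n = 2 arrays a group) as a line, colored by receptor class; dashed lines mark a fold of 1.5 either way. All 54 intervals lie between the dashed lines. Those of GRIK2, GRIN2D and CHRNB2 lie wholly above 0, and that of CHRNA5 ends just below 0.

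The 4 members nearest to a change are described first. GRIK2, a subunit of kainate receptors, had signals of 6.54 and 6.63 in untreated and 6.77 and 6.90 in exposed cells. Both exposed arrays were above both untreated ones, and the means were 6.58 ± 0.068 and 6.84 ± 0.091 (SD, n = 2 each). The change was 0.25 (SE 0.06, 95% interval 0.08 to 0.42, a fold of 1.19), with an adjusted p of 0.0928 in limma. When clusters below the median signal were left out before the test, so that 33769 were adjusted for, the adjusted p was 0.0492. Without the filter it lay between 0.0887 and 0.4 over 10 other settings, so GRIK2 passed the adjusted p only with that filter. Its fold stayed under 1.5, and it was not called under any setting.

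CHRNB2 encodes the beta subunit of the most common nicotinic receptor of the brain, where it pairs with the product of CHRNA4. Its signals were 5.81 and 5.72 in untreated and 5.95 and 5.93 in exposed cells, without overlap. The change of 0.17 (95% interval 0.04 to 0.30) had an adjusted p of 0.119 in limma. CHRNA4 itself read 6.95 and 6.84 in untreated and 6.88 and 6.83 in exposed cells, with overlapping groups and a change of -0.03 (95% interval -0.18 to 0.11). GRIN2D, a glutamate-binding NMDA receptor subunit that is prominent early in development, had signals of 6.73 and 6.56 against 6.83 and 6.83. The untreated arrays of GRIN2D stood 0.17 apart, about as far as the group means (0.18, 95% interval 0.01 to 0.36, limma adjusted p = 0.207).

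CHRNA5, an accessory nicotinic subunit that joins channels formed by other alpha and beta subunits, lay at the 84.6th percentile of all clusters. It read 7.46 and 7.51 in untreated and 7.24 and 7.39 in exposed cells. Both exposed arrays were lower, and replicate C was the lower of them. The change was -0.17 (95% interval -0.34 to 0.00), with an adjusted p of 0.223 in limma, and it ranged from -0.25 to -0.09 over 10 other settings.

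**Figure D2:**
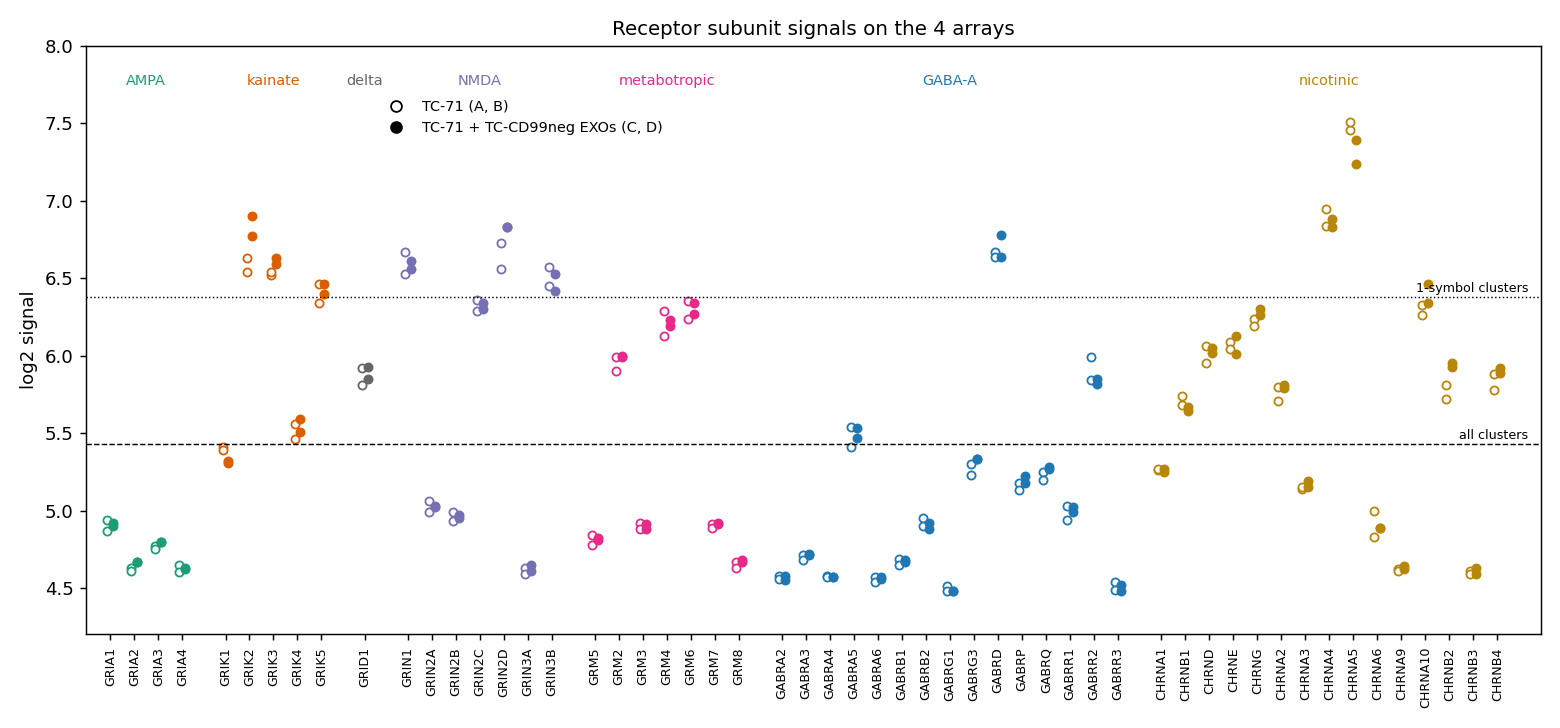
Log2 signal (vertical axis) of the 54 receptor subunits on each of the 4 arrays, open circles for untreated TC-71 (A, B) and filled circles for TC-71 + TC-CD99neg EXOs (C, D), grouped by class. The dashed line is the median of all 67539 clusters (5.43) and the dotted line the median of clusters with exactly 1 symbol (6.38); 25 genes lie above the first and 9 above the second, and open and filled circles lie close together for nearly all genes.

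Over most members, the untreated replicates lay further apart than the groups. Replicate A read higher than replicate B for 48 of the 54 subunits, against 60.3% of all clusters, and B was the lowest of the 4 arrays for 36. The median gap between A and B was 0.056, and that between C and D was 0.033. In 38 genes the gap between the untreated arrays was larger than the difference between the groups. It was smaller in GRIK2, CHRNB2, CHRNA5 and, narrowly, GRIN2D. Replicate B also had the lowest median over all clusters (5.38). How often B was lowest, or the gap larger, among all clusters was not examined, so these counts are not particular to the subunits. The groups did not overlap in 16 genes (13 higher and 3 lower after exposure). Over all clusters, not matched for signal, they did not overlap in 47.9% (28% higher and 19.9% lower).

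Members lay around the middle of all clusters (median percentile 46.2) and low among the clusters with exactly 1 symbol. Of the 54, 25 lay above the median of all clusters (5.43), which is 46.3%, against 71.1% of all clusters with exactly 1 symbol. Those 25 were above the median of each of the 4 arrays, 28 were above it on no array, and GRIK1 on some. Only 9 members (GRIK2, GRIK3, GRIK5, GRIN1, GRIN2D, GRIN3B, GABRD, CHRNA4 and CHRNA5) exceeded the median of the clusters with 1 symbol, which was 6.38. CHRNA5, CHRNA4, GRIN2D and GRIK2 exceeded the upper quartile of all clusters, and 12 members were below the lower quartile of 4.69. Probes differ in brightness, so a signal above the median does not show that a gene was expressed. Of 11 measured markers of muscle, blood and epithelial cells, 6 also lay above the median, among them MYOD1 and MYOG, the transcription factors that define skeletal muscle, at the 64.5th and 73.8th percentile.

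Calls were rarer among dim clusters. Of the clusters below the median, 0.192% were called changed, against 4.98% of those above it. Between signals of 4.5 and 5, where 21 of the members lay, 0.0688% of clusters were called. Between 6.5 and 7, where 6 members lay, the share was 5.45%, and none of those 6 was among them.

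**Figure D3:**
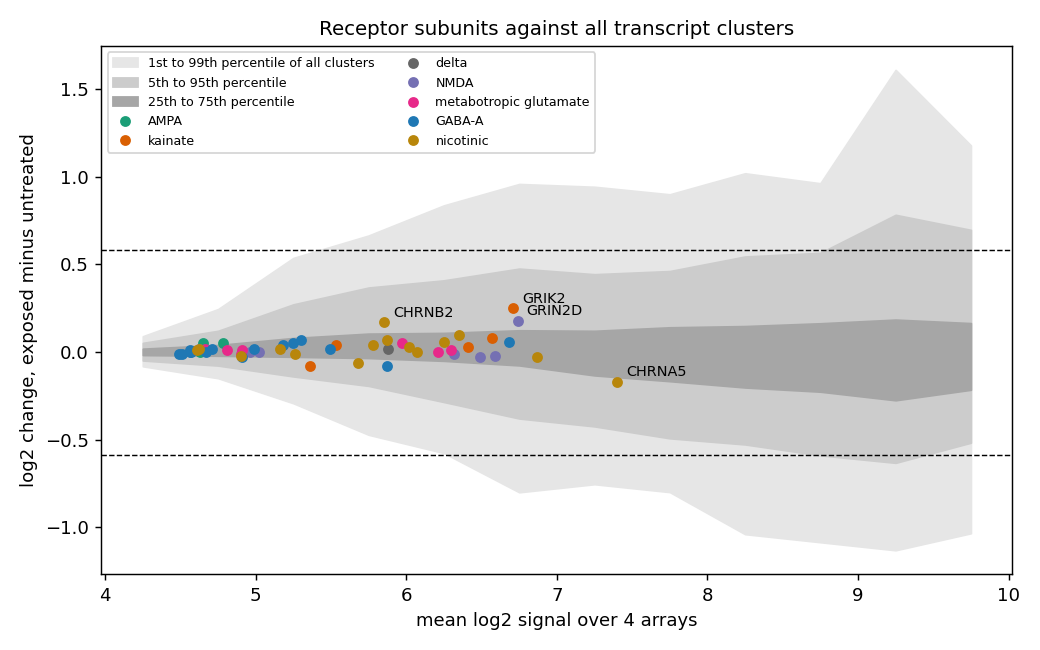
Log2 change against mean log2 signal over the 4 arrays for the 54 subunits (points, colored by class). Grey bands hold the central parts of all clusters in steps of signal up to 10, beyond which clusters are few and no band is drawn. Dashed lines mark a fold of 1.5. The bands are narrower below a signal of 5, where 22 members lie, than between 6.5 and 7, and all 54 points stay inside the fold lines.

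By class, the AMPA receptor subunits carry fast excitatory transmission. GRIA1, GRIA2, GRIA3 and GRIA4 all lay below the median, at percentiles of 20.6 to 35.1. GRIA1 read 4.94 and 4.87 in untreated and 4.92 and 4.90 in exposed cells. GRIA2, whose edited form makes the channel impermeable to calcium, read 4.63 and 4.61 against 4.67 and 4.67, a change of 0.05 (95% interval -0.05 to 0.15).

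Of the kainate receptor subunits, 4 of 5 lay above the median. Besides GRIK2, GRIK3 read 6.52 and 6.54 in untreated and 6.63 and 6.59 in exposed cells, a change of 0.08 (95% interval -0.03 to 0.18) with no overlap. GRIK1 had signals of 5.41 and 5.39 against 5.31 and 5.32, a change of -0.08 (95% interval -0.18 to 0.01), also without overlap and of the opposite sign. The high-affinity subunits GRIK4 and GRIK5, which need a partner from the other kainate subunits, had changes of 0.04 and 0.03. The delta receptor GRID1 gave 5.92 and 5.81 against 5.93 and 5.85 on the row that represents it. Its other row read 5.13 and 5.12 against 5.23 and 5.23, a change of 0.10 with an adjusted p of 0.193 in limma, so neither of its 2 rows passed.

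NMDA receptors need GRIN1, the glycine-binding subunit, together with glutamate-binding GRIN2 subunits. GRIN1 read 6.67 and 6.53 in untreated and 6.61 and 6.56 in exposed cells, so the exposed arrays lay between the untreated ones. GRIN2A and GRIN2B, the main partners in the adult forebrain, lay below the median, at percentiles of 38.9 and 36.8, and both had a change of 0.00. GRIN2C, a subunit of the cerebellum, read 6.36 and 6.29 against 6.34 and 6.30. Of the modulatory subunits, GRIN3A lay at the 20.2nd percentile and GRIN3B at the 71.9th, with changes of 0.02 and -0.03.

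Metabotropic glutamate receptors act through Gq (group I) or Gi proteins (groups II and III). Their 7 measured genes had changes between -0.01 and 0.05, and none passed the test. GRM5, of group I, read 4.84 and 4.78 against 4.81 and 4.82. In group II, GRM2 lay above the median with a change of 0.05 (95% interval -0.07 to 0.18), and GRM3 lay below it. In group III, GRM4 and GRM6 lay above the median and GRM7 and GRM8 below it. GRM6, the receptor of retinal bipolar cells, had signals of 6.35 and 6.24 in untreated and 6.34 and 6.27 in exposed cells.

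GABA-A receptors are typically built from alpha, beta and gamma or delta subunits. Of the 15 measured subunits, 3 lay above the median (GABRA5, GABRD and the rho subunit GABRR2), and neither of the measured beta and neither of the measured gamma subunits did. Since not all subunits of the family were analysed, these counts do not show whether a complete channel could be assembled. GABRD, the subunit of receptors outside the synapse, read 6.67 and 6.64 in untreated and 6.78 and 6.64 in exposed cells, and the higher exposed value was that of replicate C alone. GABRR2 had signals of 5.99 and 5.84 against 5.82 and 5.85, a change of -0.08 (95% interval -0.25 to 0.09), and array A stood apart from the other three. GABRA5 read 5.54 and 5.41 against 5.53 and 5.47. Changes in all 15 genes lay between -0.08 and 0.07.

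Nicotinic receptor subunits were above the median in 10 of 15 genes, 4 of 5 in the muscle type and 6 of 10 in the neuronal type. In the muscle type, the epsilon subunit CHRNE takes the place of the fetal gamma subunit CHRNG after birth. CHRNG read 6.24 and 6.19 in untreated and 6.30 and 6.26 in exposed cells, and CHRNE 6.09 and 6.04 against 6.13 and 6.01. CHRNB1 was the only muscle-type gene whose exposed arrays were both lower, at 5.74 and 5.68 against 5.67 and 5.64, a change of -0.06 (95% interval -0.17 to 0.05). CHRNA1, the subunit that binds acetylcholine at the neuromuscular junction, lay below the median and had a change of -0.01 (95% interval -0.11 to 0.09).

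Of the neuronal type, CHRNA10, known from cochlear hair cells, read 6.33 and 6.26 against 6.46 and 6.34, a change of 0.10 (95% interval -0.05 to 0.26). Its partner there, CHRNA9, lay at the 20.4th percentile and had a change of 0.02. CHRNB4, the beta subunit of ganglia, read 5.88 and 5.78 against 5.92 and 5.89, a change of 0.07 with an interval across 0. CHRNA5, CHRNA3 and CHRNB4 lie side by side on chromosome 15, with no other protein-coding gene between them. CHRNA5 and CHRNB4 were above the median and CHRNA3 was below it (5.14 and 5.15 against 5.19 and 5.15), and the 3 changes were -0.17, 0.07 and 0.02.

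Other subunit genes are neighbors too. The GABA-A genes GABRA4 and GABRB1, and GABRG1 and GABRA2, are neighbors on chromosome 4, and GABRB2 and GABRA6 on chromosome 5. All 6 lay below the median, with changes between -0.03 and 0.01.

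Because the study links CD99neg EXOs to AP-1, the FOS and JUN factor that binds TGANTCA, the promoters of the members were searched for it (N is any base). The windows ran from 250 bases before to 50 bases after each annotated start in RefSeq (GRCh38.p14), and 40 of the 54 genes had one. The motif, which reads alike on both strands, was in 8.77% of the members' 57 windows and in 7.71% of all 35093 windows. The matches of all 5 genes follow, as the strand of the gene reads, with the motif in capitals; they are printed so that the cores can be compared. They stand at chr3:98035384-98035412 (minus strand) for GABRR3, chr5:161685704-161685721 (plus) for GABRA6, chr5:178995489-178995517 (minus) for GRM6, chr6:34146200-34146228 (minus) for GRM4 and chr19:1000169-1000186 (plus) for GRIN3B.
GABRR3: tattattttgcTGAGTCActaagtatatt
GABRA6: cctttcccaacTGAGTCA
GRM6: gccagacagtcTGAGTCAgacgcaaacca
GRM4: tgttatatactTGAATCAggagcagtggg
GRIN3B: TGAATCAgagcagggatg
The sites of GABRR3, GABRA6 and GRM6 have the same core letters, and those of GRM4 and GRIN3B share another. Changes of these 5 genes were -0.01, 0.01, 0.01, 0.00 and -0.03, each with a 95% interval that covers 0. The members that came nearest to a change, GRIK2, GRIN2D, CHRNB2 and CHRNA5, are not among them.

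Other elements that bear on this cell type and on neuronal genes were searched on both strands. A tandem of GGAA, the repeat that the EWS fusion factor binds, was searched as GGAAGGAA. It was in 3.67% of all windows and in 1 of the members' 57 windows (1.75%). That window, of CHRNA1, held 2 overlapping matches read on the opposite strand (chr2:174764698-174764722, minus strand).
CHRNA1: ataaTTCCTTCCTTCCtatacattt
The core of RE1, the element through which the repressor REST silences neuronal genes in other cells, was searched as CAGCACC, any 2 bases and GGACAG, a choice made after the values were seen. It was in 0.0513% of all windows and in 1 of the members' 57 windows (1.75%), a single match. That window was of GRIA2, and the match was again read on the opposite strand (chr4:157220385-157220413, plus strand).
GRIA2: cgaggcgCTGTCCTCGGTGCTGaaaggcc
Both genes lay below the median, and neither passed the test. A match is a stretch of letters in a reference window and no measure of binding in these cells.

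Of the measured genes around the receptor subunits, 5 were called changed, a share near that of all clusters above the median signal. Of 103 genes in 5 lists (4 of proteins and enzymes that serve such receptors or their transmitters, and 1 of related receptors), 97 were measured, 4 were higher and 1 was lower after exposure, and 92 were not called, against 2.59% of all clusters and 4.98% of those above the median signal, where 69 of the 97 lay. The median change over these lists was 0.02. The difference between these lists and the subunits was not tested, and the lists were chosen with earlier results of these data known.

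Auxiliary and assembly proteins, which bind the receptors and set their gating or delivery, had 23 of 24 genes measured, with 2 higher. SHISA6, an auxiliary protein of AMPA receptors, read 7.50 and 7.53 in untreated and 8.21 and 8.25 in exposed cells, and rose by 0.71 (SE 0.04, limma adjusted p = 0.00502). OLFM1, a secreted protein that associates with AMPA receptors, read 8.14 and 8.07 against 8.71 and 8.75, and rose by 0.62 (SE 0.04, limma adjusted p = 0.00689). Groups did not overlap in either gene, while GRIA1 to GRIA4 themselves lay below the median, with changes of at most 0.05. CNIH2, which carries AMPA receptors to the surface, had a change of 0.38 (fold 1.30, limma adjusted p = 0.0132), under the fold required. LYPD1, a protein that binds nicotinic receptors, had 0.46 (fold 1.38, limma adjusted p = 0.0169), also under it. The kainate receptor partner NETO2 read 8.65 and 8.81 against 9.06 and 9.05, a change of 0.32 with an adjusted p of 0.0569 in limma.

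Of 33 measured scaffold and trafficking genes, 1 was higher. HOMER2, which links metabotropic glutamate receptors to calcium stores, read 7.08 and 6.95 in untreated and 7.70 and 7.96 in exposed cells, and rose by 0.81 (SE 0.10, limma adjusted p = 0.0177). It was not called without replicate A or without replicate B. A dimmer row of HOMER2 read 5.41 and 5.11 against 5.41 and 5.24, a change of 0.07 that was not called, so its 2 rows disagree. HOMER1 had a change of 0.05. The secreted pentraxin NPTX2, which clusters AMPA receptors, read 7.84 and 7.78 against 7.21 and 7.29, a change of -0.56 that passed the adjusted p (0.00962 in limma) and not the fold.

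No transporter was called among 14 measured with the values as deposited. SLC1A1, a neuronal glutamate transporter, had a change of -0.56 (limma adjusted p = 0.00945), under the fold required, and was called lower under each of 3 other scalings. SLC18A3, which loads acetylcholine into vesicles, read 10.14 and 9.97 in untreated and 10.42 and 10.61 in exposed cells, a change of 0.46 with an adjusted p of 0.0539 in limma. Of 10 measured enzymes, SRR was lower. This enzyme makes D-serine, the co-agonist of NMDA receptors, and read 6.43 and 6.44 against 5.78 and 5.82, so it fell by 0.63 on the log2 scale (SE 0.04, limma adjusted p = 0.00554). BCHE, a cholinesterase, had -0.58 (limma adjusted p = 0.0122), just under the fold required.

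Among 17 related receptors, CHRM2 was higher. It encodes a muscarinic acetylcholine receptor, a G protein-coupled receptor for the same transmitter as the nicotinic channels, and read 6.45 and 6.41 in untreated and 7.41 and 7.41 in exposed cells. CHRM2 rose by 0.98 (SE 0.04, a fold of 1.97, limma adjusted p = 0.00353), the largest change in these lists. The other muscarinic receptors had changes between 0.01 (CHRM3 and CHRM5) and 0.17 (CHRM4), and the GABA-B receptor genes GABBR1 and GABBR2 had -0.17 and 0.02. The other rows of GABBR1 carry haplotype names and read almost alike, so they are not independent of each other. Their changes were -0.25 to -0.24, which passed the adjusted p (0.0246 to 0.0264 in limma) and not the fold.

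The counts in these lists depended on the scaling. With each array centered on its median, 3 genes were higher and 4 lower, since OLFM1 was no longer called and NPTX2, SLC1A1 and BCHE were. With quantile normalization once more and with cyclic loess, 4 were higher and 3 lower, since SLC1A1 and BCHE were called as well. SLC1A1 and BCHE, close to the fold of 1.5, were thus called lower under all of the 3 scalings, and also without replicate A. SHISA6, SRR and CHRM2 were called under all of the 3 scalings tried and without each array in turn.

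**Figure D4:**
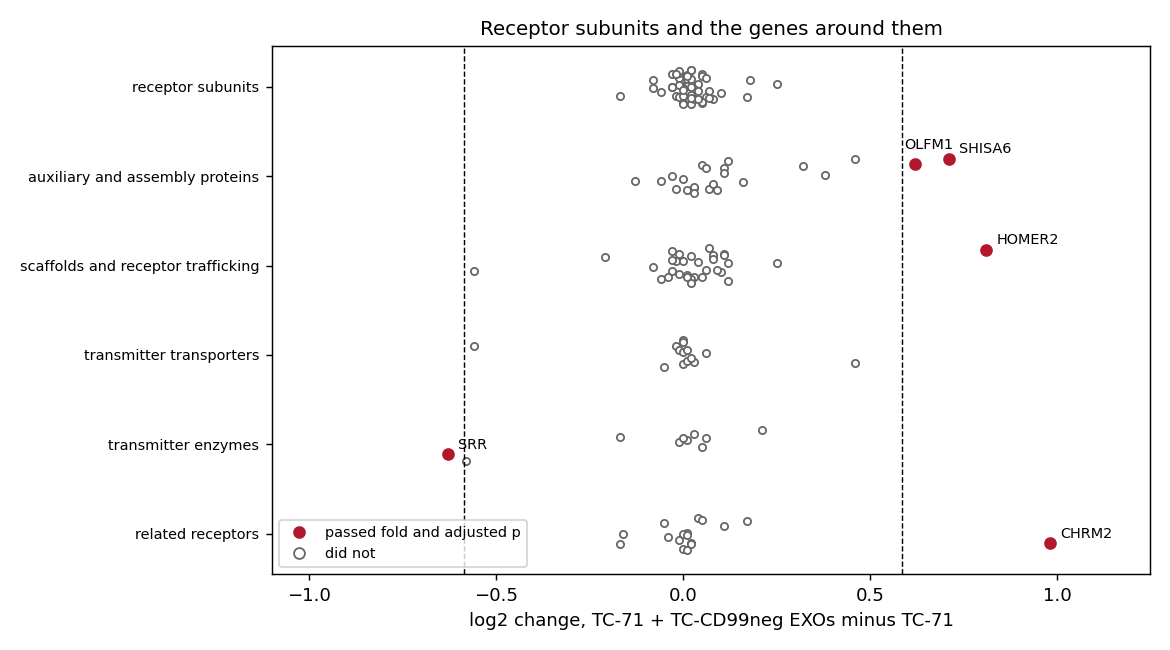
Log2 change (exposed minus untreated cells) of the 54 receptor subunits and of the 97 measured genes of 5 lists around them, 1 point a gene, red where both thresholds were passed; dashed lines mark a fold of 1.5. The receptor subunits lie between -0.17 and 0.25, and the 5 red points (SHISA6, OLFM1, HOMER2, SRR and CHRM2) are all in the other lists.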

How the data were processed

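In GeneSpring, the authors ran ExonRMA16 and then quantile normalization with no baseline transformation, and deposited log2 signals of 67539 transcript clusters. These were used as deposited. Their medians still differed between arrays (5.38 to 5.45), so an offset between arrays may remain in them. The genome build behind the array's cluster names was not given in the sources used here. Promoter windows came from RefSeq. Clusters were named from the platform table (23383 with 1 symbol, 1225 with several, 42931 with none).

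The test was limma's moderated fit (version 3.58.1 in R 4.3.3, lmFit then eBayes) over all clusters and 4 arrays, as exposed minus untreated, two-sided, with Benjamini-Hochberg adjustment. Residual degrees of freedom were 2, and the prior added 2.59. Named members were those with the 5 largest rises and falls and the brightest of each class, and, of the lists, called genes or the one with the largest change. Other genes were named to describe a class and were chosen after their values were seen, as was the third motif. The members and lists were chosen with earlier results of these data known. The fit was tested on simulated data. Alternatives covered the variance model, scaling, dim clusters, duplicate rows, the fold, the row of a gene and each array in turn. The number of arrays limits the precision.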

Additional observations from a re-analysis of the deposited data

How the results depend on the processing

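No receptor subunit was called changed under any of the alternatives run. Of 140 changes of 14 named members recomputed under 10 settings, 123 kept their direction, 17 reversed it and 0 crossed the threshold. The reversed ones were changes near 0. GRIA1 (0.00), GRID1 (0.02) and GRM6 (0.01) became -0.04, -0.02 and -0.03 with arrays centered on their medians, -0.02, -0.02 and -0.03 with quantile normalization once more, and -0.01 each with cyclic loess. With 1 array left out, GRIA1 ranged from -0.03 to 0.04, GRID1 from -0.03 to 0.08, GRM6 from -0.04 to 0.07, GABRD from -0.01 to 0.12 and CHRNA4 from -0.09 to 0.02. With clusters below the median left out, 1 subunit (GRIK2) passed the adjusted p alone. Against the median of clusters with 1 symbol, 9 subunits lay above the reference, and against the upper quartile 4, in place of 25. Over all clusters, 1746 were called. An equal-variance test without moderation called 0, with 2 residual degrees of freedom, a fold of 1.2 gave 5729 and a fold of 2 gave 421. Of the 97 measured genes around the receptors, 5 were called, and these settings gave 0, 10 and 0. With arrays centered on their medians, 865 clusters were higher and 867 lower, in place of 1043 and 703. No paired analysis was possible because the replicate letters A to D are not shared between the groups. With 2 arrays a group, each fit without an array assumes that the lone one varies like the others.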
